A study of Mus musculus with 30 samples.

Results

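The immunoglobulin heavy chain probes of the array were chosen by their annotation alone: every non-control probe whose description in the scanner files contains the words immunoglobulin heavy, unless it also mentions binding or recombination. The rule found 43 of 55681 probes. Of these, 39 were mapped by the array's own annotation (mouse genome build mm9) to the minus strand of chromosome 12, between positions 114496985 and 117238485, and 4 had no mapped position. Total RNA from mouse aorta was hybridised to 30 one-colour Agilent arrays in 10 groups of 3. The mice were C57BL/6, either wild type (WT) or uMT, a line described as lacking B cells. For each genotype, 1 group had no operation (pre), and the others were examined on day 7 or day 42 after 0.5 M CaCl2 or, for sham, physiological saline had been put on the outside of the aorta. Every sample, sham and untreated ones too, carries the tissue label of abdominal aortic aneurysm. The labels do not say whether the 3 replicates of a group were separate animals, so p-values measure only the spread between these samples.

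An immunoglobulin heavy chain is encoded by a variable segment, joined from a large pool during B cell development, and by a constant region that sets the antibody class. Naive B cells make mu and delta chains, and class switching later replaces mu with a gamma, epsilon or alpha constant region that lies further downstream in the locus. Plasma cells, the antibody-secreting progeny of B cells, carry heavy chain mRNA in very large amounts. The uMT allele disrupts the membrane exon of the mu constant region, which stops most B cell development before the surface receptor is made.

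The probes that carry the comparisons are shown here 5′ to 3′ as printed on the array, all from the minus strand of chromosome 12 in mm9. The first 3 lie at chr12:114496985-114497044, chr12:114497090-114497149 and chr12:114498348-114498407, downstream of every gamma probe. In RefSeq's gene order for this locus (assembly GRCm38.p6, used for names and order only) this is the end that holds Ighe and Igha, the epsilon and alpha constant regions. Their descriptions in the files name a J558 family heavy chain for the first and second, and a heavy chain complex mRNA for the third. They are therefore called alpha end A, B and C here, for their position, and counted as constant region in every comparison by position.

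alpha end A: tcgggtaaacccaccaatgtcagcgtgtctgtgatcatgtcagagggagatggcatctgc

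alpha end B: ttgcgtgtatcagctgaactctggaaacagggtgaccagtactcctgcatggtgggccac

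alpha end C: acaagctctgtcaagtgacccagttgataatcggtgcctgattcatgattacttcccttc

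A pair of gamma probes is shown because both end at a stop codon, in capitals, and were measured on different numbers of arrays. A gamma mRNA can stop at the end of the secreted chain or be spliced on to membrane exons further downstream. The IgG2a upstream probe (chr12:114525600-114525659) ends at the first of these stops, and the gamma 2C probe (chr12:114523536-114523595) lies 2064 bases further downstream. In each, the 19 codons before the stop hold 0 other stops.

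IgG2a upstream: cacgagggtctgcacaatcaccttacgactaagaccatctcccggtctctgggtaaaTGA

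gamma 2C: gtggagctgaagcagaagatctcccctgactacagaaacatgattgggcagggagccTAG

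The mu probe (chr12:114659630-114659689) is shown because it was measured in uMT aorta. The array carries 10 spots of it.

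mu: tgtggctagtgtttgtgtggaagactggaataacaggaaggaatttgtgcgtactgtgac

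Variable segment probes are shown for what they share. V1-83 (chr12:117202095-117202154), V1-84 (chr12:117218996-117219055), V1-20 (chr12:115962048-115962107), V1-5 (chr12:115751612-115751671) and V1-23 (chr12:116002746-116002805) hold the same stretch of 21 bases, AGAAGTTCAAGGGCAAGGCCA, in capitals. It is the longest stretch held by 5 of the 43 heavy chain probes, and 7 of all 55681 probes, a share of 0.0126%, have it on either strand. V1-85 (chr12:117238426-117238485) and V10-3 (chr12:115761848-115761907) are shown for a large and a small response, and V14-3 (chr12:115298056-115298115) holds, close to its 3′ end, the triplets TATTACTGT, in capitals, typical of the 3′ end of a variable segment, which 3 of the 43 heavy chain probes and 80 of all probes (0.144%) hold on either strand.

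V1-83: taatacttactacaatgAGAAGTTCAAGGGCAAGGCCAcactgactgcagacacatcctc

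V1-84: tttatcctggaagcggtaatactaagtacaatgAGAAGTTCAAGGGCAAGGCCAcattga

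V1-20: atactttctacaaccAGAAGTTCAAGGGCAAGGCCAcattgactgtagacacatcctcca

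V1-5: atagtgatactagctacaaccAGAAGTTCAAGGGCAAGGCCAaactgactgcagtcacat

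V1-23: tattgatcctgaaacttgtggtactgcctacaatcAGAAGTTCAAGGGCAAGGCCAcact

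V1-85: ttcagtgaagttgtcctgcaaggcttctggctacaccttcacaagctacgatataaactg

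V10-3: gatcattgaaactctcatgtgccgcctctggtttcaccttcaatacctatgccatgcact

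V14-3: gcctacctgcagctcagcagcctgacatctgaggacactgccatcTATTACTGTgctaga

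The longest stretch shared by a pair of constant region probes was 10 bases, and that shared by a constant and a variable probe was 9 bases. Among the 496 pairs of variable probes, 15 shared 20 bases or more, the longest being 30 bases between V1-83 and V1-84. Signals of the probes in those pairs are not independent by sequence. The constant region probes are not independent either, since alpha end A and B list the same transcripts in their annotation, as do both IgG2a probes.

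Each level below is log2 of the processed signal minus the array's own 75th percentile, so that 0 is that percentile. A probe counts as measured on an array where the scanner software flagged it well above background, and it was tested if it was measured on all 3 arrays of at least 1 group, which 33228 probes were. Over the arrays, 36.6% to 61.8% of probes were measured, and the number of arrays and their background limit the precision. The WT sham day 42 replicate 2 array stood apart: it was the dimmest, lay alone on its slide and scan, and correlated with the other WT sham day 42 arrays at r = 0.723 to 0.732 across probes. On that array, probes at background read high relative to its percentile, which makes overlaps with the sham group more frequent. The arrays lay on 5 slides, and the CaCl2 and sham arrays of WT at day 7 and of uMT at either day shared no slide, so slide and treatment cannot be told apart there. The defining markers of the labelled tissue, such as Acta2 and Myh11, were measured in every group: all 6 smooth muscle markers were.

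The number of heavy chain probes measured per array separated the CaCl2-treated WT aortas from the rest. WT pre arrays had 6 to 10 of the 43 probes measured, WT sham day 7 arrays 8 to 12, and WT sham day 42 arrays 4 to 7. WT CaCl2 day 7 arrays had 15, 16 and 22, and WT CaCl2 day 42 arrays had 25, 29 and 29. These ranges did not overlap with those of the untreated and sham WT groups. The share of all probes measured was 58.4% to 61.8% in WT CaCl2 day 7 and 50.6% to 61.6% in WT CaCl2 day 42. It was 55.2% to 56.7% in WT pre, 54.1% to 60.4% in WT sham day 7 and 36.6% to 53.7% in WT sham day 42. The 15 uMT arrays ranged from 2 to 9, and the CaCl2 groups of uMT, at 4 to 5 on day 7 and 2 to 5 on day 42, did not exceed the highest of their sham arrays. Of the 43 probes, 9 were measured on no array and another 9 on WT CaCl2 day 42 arrays alone. The BALB/c probe, a heavy chain mRNA described as from that strain and unmapped in the C57BL/6 build, was measured on 0 of the WT and 0 of the uMT arrays.

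In WT aorta at day 42, heavy chain signal was higher after CaCl2 than after sham treatment, with the largest changes at the alpha end of the locus, a wide range at the gamma and variable probes and a small change at mu. Without any filter, 19 of the 43 probes were higher and 0 lower by limma at an adjusted p under 0.05, against 2.41% of all 55657 probes higher. Their median change was 1.85 on the log2 scale, against -0.46 for all probes. Of the 23 probes that passed the filter, 20 were higher and 0 lower, against 5.79% of 33228 probes. Since 15 of those 23 passed through a WT CaCl2 group alone, the count over 43 is the one to read. In whole tissue, more cells of a type and more RNA per cell cannot be told apart. Without WT CaCl2 day 42 replicate 3 the count over the filtered probes was 16, and with the 2 compared groups fitted alone it was 0, while 19 of the 23 then had an unadjusted p under 0.05.

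Alpha end A, whose sequence lies nearest the 3′ end of the locus among the members, gave levels of 8.01, 8.63 and 9.46 on the WT CaCl2 day 42 arrays and -1.02, 1.54 and -3.75 on the sham arrays. The groups did not overlap, and the CaCl2 arrays lay close together while the sham arrays were far apart. The change was 9.78 ± 1.60 (log2, standard error of the fit, 3 arrays a group; adjusted p = 7.27e-04). Alpha end B gave 7.07, 7.80 and 8.68 after CaCl2 and -2.03, 0.02 and -4.42 after sham, a change of 9.996 ± 1.47 (limma, adjusted p = 3.00e-04). Both probes varied widely within the WT sham groups and within WT pre, where alpha end A read 2.24 on one array and -6.52 and -6.67 on the others. The same array of WT pre, replicate 2, was the high one for all 3 alpha end probes.

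Alpha end C, which lies further upstream and is described singly for its position, a choice made after its values were seen, gave 1.68, 2.15 and 3.95 after CaCl2 and -5.74, -3.39 and -6.16 after sham, where it was measured on 0 arrays. The change was at least 51.7-fold against the background limit (fit: 7.69 ± 0.88, adjusted p = 2.16e-05). Such a bound sets the mean of the bright group against, per array, the lowest signal of any probe well above background, or the dim probe's own signal where that is higher. At their lowest after CaCl2, all 3 alpha end probes were above the highest sham array.

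The gamma probes read the constant regions of IgG, the main class of antibody in serum. IgG2a downstream (chr12:114525496-114525555) gave 1.47, 0.80 and 5.25 on WT CaCl2 day 42 arrays and -4.66, -2.50 and -3.07 on sham arrays, without overlap, a change of 5.92 ± 0.83 (limma, adjusted p = 1.74e-04). IgG2a upstream gave 0.28, -0.44 and 5.10 against -3.68, -1.49 and -3.10, a change of 4.40 ± 0.94 (limma, adjusted p = 0.00482). Replicate 3 was the highest array for both, by more than the distance between the other pair of CaCl2 arrays.

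The gamma polypeptide probe (chr12:114544738-114544797), at the place of Ighg2b in RefSeq's order, gave 0.29, 0.11 and 2.73 after CaCl2 and -4.76, -3.53 and -6.32 after sham. It was not well above background on any sham array, and the change was at least 17.7-fold (fit: 5.91 ± 0.68, limma adjusted p = 2.26e-05). Gamma 1 downstream (chr12:114567263-114567322) gave -0.48, -3.08 and 0.20 against -5.80, -3.50 and -6.22. Its groups did not overlap, although the lowest CaCl2 array lay close to the dim sham array, and the change was at least 3.94-fold (fit: 4.05 ± 0.72, limma adjusted p = 0.00135). Gamma 1 upstream (chr12:114568594-114568653), whose accession list includes a gamma 2C transcript as well, gave -3.72, -4.42 and -0.40 against -5.77, -3.41 and -6.16. Here the groups overlapped and the difference of 2.27 ± 0.73 missed the threshold (limma, adjusted p = 0.0507).

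The gamma 2C probe lay near the background limit and could not be firmly compared with these. It gave -4.0, -3.80 and -5.80 on the WT CaCl2 day 42 arrays and -5.94, -1.69 and -6.37 on the sham arrays, and was measured on 2 of the 3 CaCl2 arrays and 0 of the sham arrays. The sham value of -1.69 came from the dim replicate 2 array, and the other sham arrays lay below every CaCl2 array. Against the sham array of the same slide, the mean of the CaCl2 arrays was higher by 1.84. The gamma 2C probe failed the filter and was not tested in the filtered fit. Its neighbour 2064 bases upstream, IgG2a upstream, was measured on 3 and 1 arrays of the same groups. The names follow the descriptions, and probes this close do not set an IgG2a gene against a gamma 2C gene.

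The mu probe reads the first constant region of the locus, the one used before class switching. It gave 0.75, -0.02 and 2.91 on WT CaCl2 day 42 arrays and 0.11, -1.74 and -0.27 on sham arrays, and the groups overlapped. The change of 1.85 ± 0.56 passed the threshold (limma, adjusted p = 0.0362), but rested on single arrays. It was 1.0 and no longer passed without CaCl2 replicate 3, and 1.29 and no longer passed without sham replicate 2. WT sham day 7 gave -0.05, -0.09 and -0.75, above the WT pre values of -1.39, -1.18 and -1.75, a difference that was not tested.

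The variable segments changed less than the alpha end and over a wide range. Of the 32 variable probes, 12 were higher and 0 lower in WT at day 42 without a filter, and of the 10 constant region probes by position, 7 were higher. Without a filter, the median change was 5.16 for the 10 constant region probes and 1.34 for the 32 variable probes, against -0.46 over all probes. The values that follow are for probes that passed the filter, most of them through a WT CaCl2 group alone. Among these, the median change was 5.91 for 9 constant region probes (range 1.85 to 9.996) and 3.39 for 14 variable probes (range -0.25 to 5.26), against -0.01 over all tested probes. The median of the constant region thus exceeded that of the variable segments by 2.52 ± 0.97 (SD of the 3 CaCl2 arrays, each against the sham mean). With classes taken from the descriptions instead, where alpha end A and B count as variable, the difference was 0.39 ± 1.30, within the spread of the arrays. By position, the alpha end alone exceeded the variable median by 6.39 ± 0.47, the 5 tested gamma probes by 1.01 ± 1.88, and mu, at 1.85, changed by less than that median. These members are not replicates of one another, and no test was made between the classes.

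V1-85, the probe farthest upstream in the locus, gave -0.07, 0.00 and 2.21 on WT CaCl2 day 42 arrays and -5.59, -2.35 and -5.68 on sham arrays, on none of which it was measured. The change was at least 14.1-fold (fit: 5.26 ± 0.72, limma adjusted p = 1.65e-04). V1-83 gave -0.98, -0.43 and 0.92 against -5.75, -2.41 and -6.33, at least 7.65-fold higher (fit: 4.66 ± 0.74, limma adjusted p = 5.74e-04). Neither group pair overlapped, and the nearest sham array was the dim one in each case. V14-3, singled out after its values were seen, gave 0.49, 0.50 and 2.47 against -3.34, -1.36 and -3.91, a change of 4.02 ± 0.51 (limma, adjusted p = 8.16e-05).

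A pair of variable probes did not follow. V10-3 was measured on all 30 arrays, gave -2.16, -2.03 and -0.54 after CaCl2 and -2.08, -0.08 and -2.91 after sham, and differed by 0.11 ± 0.47 (limma, adjusted p = 0.894). V1-63 gave -2.57, -2.87 and -4.69 against -3.09, -3.41 and -2.89, a difference of -0.25 ± 0.46 (limma, adjusted p = 0.746). Its groups overlapped, and it was the single tested member for which replicate 3 was not the highest of the WT CaCl2 day 42 arrays. V1-63 shares 25 bases with V1-83, whose groups did not overlap.

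By family, 7 of the 8 tested V1 probes, out of 15 V1 probes in all, were higher at day 42 in WT. The single tested probes of V9 and V14 were higher too, and 0 of 1 of V10, against 5.79% of all 33228 tested probes. Most of the tested V1 probes and the tested V9 probe had passed the filter through a WT CaCl2 group alone. Their being higher in that genotype after CaCl2 is thus partly built into the filter. None of the V3, V8, V11, V12 and V15 probes passed the filter. Position along the variable part of the locus did not sort the tested probes. Of the 14 mapped probes nearest the constant region, 6 were tested and 5 of those were higher. Of the 15 farthest from it, 7 were tested and 6 of those were higher, against the same 5.79% of all tested probes. Of the 5 probes with the shared stretch, 3 were tested. V1-83, V1-20 (at least 4.85-fold, limma adjusted p = 0.0166) and V1-84 (limma, adjusted p = 0.0253) were higher. V1-84 and V1-20 were measured on 0 of the sham arrays, and V1-84, whose groups overlapped, has no fold above the background limit. V1-5 read -4.29, -3.01 and -2.85 on the WT CaCl2 day 42 arrays, and V1-23, which was measured on no array, read -5.43, -5.37 and -4.48.

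Some segments were measured on only part of the WT CaCl2 day 42 arrays. They were picked out after their values were seen. V8-5 gave -6.46 and -6.91 on replicates 1 and 2 and 1.69 on replicate 3. V8-12 gave -6.48 and -5.54 on replicates 1 and 2 and 1.59 on replicate 3. V9-2 went the other way, at -3.20, -1.23 and -5.60. The WT CaCl2 day 42 arrays thus differed from each other in which segments they showed, and none of these 3 probes passed the filter. Outside that group, V8-12 was also measured on 1 WT CaCl2 day 7 array and 1 uMT CaCl2 day 42 array, and V9-2 on 1 WT CaCl2 day 7 array.

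The 3 WT CaCl2 day 42 arrays were ordered differently by different regions. Against the sham mean, the median change of the alpha end probes was 9.09, 9.71 and 10.54 on replicates 1, 2 and 3. The gamma probes gave 4.69, 2.31 and 7.61, and the variable probes 2.61, 3.03 and 4.75. Replicate 3 was the highest array for 22 of the 23 tested probes. The gap from replicate 3 to the next array had a median of 3.32 for the gamma probes and 0.87 for the alpha end probes. The lowest array was replicate 2 for 5 of 5 gamma probes and for mu, and replicate 1 for 3 of 3 alpha end probes and 9 of 14 variable probes. The ratio of alpha end to gamma signal therefore varied between arrays of the same group.

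The comparison at day 42 in WT spans slides, but replicate 3 of the sham group shared its slide with all 3 CaCl2 arrays. Against that single array, 39 of the 43 probes were higher, with a median difference of 3.04 (range -1.65 to 12.5), while 52.8% of all probes were higher, with a median of 0.02. With 1 sham array, no test can be made.

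At day 7 in WT, all 3 alpha end probes were measured on every CaCl2 array. Alpha end A, B and C were also measured on 3, 2 and 1 of the sham arrays, and of the 3 only alpha end C passed. Alpha end A gave 4.23, 3.93 and 5.01 after CaCl2 and 1.34, 0.48 and -3.70 after sham, and alpha end B gave 2.97, 2.71 and 3.88 against 0.31, -0.53 and -4.51. The groups did not overlap for either probe, but the wide sham spread left differences of 5.02 ± 1.60 and 4.76 ± 1.47 short of the threshold (limma, adjusted p = 0.0624 and 0.0538). Alpha end C gave -2.15, -2.88 and -1.10 against -4.34, -6.82 and -6.14 and rose by 3.72 ± 0.88 (limma, adjusted p = 0.0138). It was 1 of 2 members higher among the 23 tested, with 0 lower, against 2.68% of all probes higher. The other was V1-85, at -3.71, -3.71 and -3.33 against -5.45, -6.29 and -6.21, at least 2.06-fold higher (fit: 2.40 ± 0.72, limma adjusted p = 0.0464). Both had passed the filter through a WT CaCl2 group alone, so the count of 2 is partly built into the filter. Without a filter, 1 of the 43 probes was higher and 0 lower, against 0.794% of all probes higher. The gamma polypeptide probe (at least 1.41-fold, limma adjusted p = 0.323) and gamma 1 downstream (at least 1.09-fold, limma adjusted p = 0.0705) did not overlap with sham and did not pass. Both IgG2a probes, gamma 1 upstream and mu overlapped with their sham arrays: IgG2a upstream gave -2.84, -2.19 and -3.63 against -2.54, -1.82 and -3.63. The count of 2 was unstable. It was 0 without WT sham day 7 replicate 2 or 3 or WT CaCl2 day 7 replicate 3. It was 1 without WT sham day 7 replicate 1 or WT CaCl2 day 7 replicate 2, and 8 without WT sham day 42 replicate 2.

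From day 7 to day 42 after CaCl2, compared within a single slide in WT, 17 of the 23 tested probes rose and 0 fell, against 0.325% of all probes higher. Without a filter, 17 of 43 rose, against 0.156%. IgG2a downstream, at -2.41, -2.17 and -3.99 on day 7, rose by 5.36 ± 0.83 (limma, adjusted p = 0.00115), and the gamma polypeptide probe, at -3.84, -3.76 and -4.64 on day 7, rose by 5.12 ± 0.68 (limma, adjusted p = 4.26e-04). V1-85 rose by 4.30 ± 0.72 (limma, adjusted p = 0.00258). Alpha end C rose by 4.63 ± 0.88 (limma, adjusted p = 0.00992), whereas alpha end A and B, with differences of 4.31 ± 1.60 and 4.67 ± 1.47, did not pass (limma, adjusted p = 0.496 and 0.308). Mu differed by 1.63 ± 0.56 (limma, adjusted p = 0.389). The count fell to 8 without WT CaCl2 day 42 replicate 3, to 9 without day 7 replicate 1 and to 10 without day 7 replicate 3.

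In uMT aorta the heavy chain probes did not pass in either direction after CaCl2. At day 42, 0 of the 23 tested probes were higher or lower by limma, against 4.04% and 1.65% of all probes, and 2 had an unadjusted p under 0.05. The differences ran from -1.25 (V1-67) to 1.73 (alpha end A). At day 7 the count was 0, against 0.524% and 0.542%, with 0 at an unadjusted p under 0.05. Between the CaCl2 groups at day 7 and day 42, on one slide, it was again 0 (0.494% and 0.358% of all probes), with 0 at an unadjusted p under 0.05. IgG2a downstream was measured on none of the 15 uMT arrays, and neither were the gamma polypeptide, gamma 1, alpha end C, V1-83 and V1-85 probes.

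Residual heavy chain signal in uMT came from few probes. Mu and V10-3 were measured on all 15 uMT arrays, and 4 members on at least 8 of 15, a share below the 51.5% of all probes that were; in WT, 10 members were, against 56.3% of all probes. The other 2 of the 4 were V1-63, on 11 uMT arrays, and V14-3, on 10. Counting each probe on each array, 72 pairs in uMT (11.2%) and 204 in WT (31.6%) were measured. In uMT, 28 of the 43 probes were measured on no array. The count of 4 depends on the flag: it was 15 with the scanner's positive and significant flag, and 17 with the 95th percentile of the negative controls as the limit, against 27 and 27 in WT.

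Mu, the constant region that the uMT allele alters, was measured in both genotypes. It gave -0.62, -1.40 and -0.73 in uMT pre, and -1.39, -1.18 and -1.75 in WT pre. In uMT sham day 42 it gave -0.59, -1.97 and -2.68, and after CaCl2 the replicates gave -0.67, -0.58 and, on the highest array, a level at the 75th percentile itself. The uMT difference between CaCl2 and sham at day 42 was 1.33 ± 0.56 (limma, adjusted p = 0.187), beside 1.85 in WT. The pre arrays of the genotypes overlapped, and over all conditions mu differed between uMT and WT by -0.62 ± 0.25, which did not pass (limma, adjusted p = 0.173). Where the probe lies relative to the disrupted membrane exon is not recorded in the files, so it checks nothing about the allele.

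Alpha end A and B gave a trace in uMT on a single array. On uMT CaCl2 day 42 replicate 2, alpha end A read -1.78 and alpha end B -3.05, both measured, while the other 2 arrays of the group gave -4.81 and -4.44 for alpha end A and were not above background. The difference of 1.73 ± 1.60 from sham did not pass (limma, adjusted p = 0.659).

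Between genotypes, the CaCl2 groups at day 42 were compared first. There 18 of the 23 tested probes were lower in uMT than in WT and 0 higher, against 0.894% of all probes lower, and 17 of 43 without a filter, against 0.248%. Alpha end A and B were among them (limma, adjusted p = 8.81e-05 and 2.59e-05), with fitted differences of -12.38 and -12.43 on the log2 scale, but each was measured on 1 of the 3 uMT arrays, so these sizes rest in part on signals at background. IgG2a downstream was at least 46.8-fold lower (adjusted p = 1.07e-05), IgG2a upstream at least 25.8-fold lower (adjusted p = 0.00362) and V1-85 at least 13.5-fold lower (adjusted p = 1.47e-04). Gamma 1 upstream, mu, V1-84, V10-3 and V1-63 were the 5 that did not pass, mu with a difference of -1.63 ± 0.56 (limma, adjusted p = 0.153). In 19 probes no uMT array reached the lowest WT array, against 20.4% of all probes. The groups lay on separate slides, so slide and genotype cannot be told apart. The count was 0 under a random slide block, 3 with the filter of 15 measured arrays, 9 with both groups fitted alone and 12 without WT CaCl2 day 42 replicate 3.

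Before any operation, 0 of the 23 tested probes differed between uMT and WT by limma, against 0.0451% of all probes higher and 0.0181% lower, and 2 had an unadjusted p under 0.05. Over the 5 conditions together, 9 probes were lower in uMT and 0 higher, against 2.25% of all probes lower. They were the 3 alpha end probes, both IgG2a probes, the gamma polypeptide probe, V1-83, V1-85 and V14-3. For alpha end A and B and IgG2a downstream the adjusted p was 3.59e-06, 5.98e-06 and 6.66e-06 (limma). They were measured on 1, 1 and 0 of the 15 uMT arrays, so no size is given. The count was 0 under a random slide block. With the filter of 15 measured arrays, under which only IgG2a upstream and V14-3 of these 9 were tested, it was 2. Without a filter it was 6 of 43, all of them constant region probes, so that V1-83, V1-85 and V14-3 no longer passed. In sham aortas at day 7, alpha end A gave -7.18, -7.00 and -6.68 on uMT arrays, where it was not above background, against 1.34, 0.48 and -3.70 in WT. These groups did not overlap, and their difference was not tested.

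The response to CaCl2 at day 42 differed between the genotypes for 4 of the 23 tested probes, all with the smaller response in uMT, against 0.0482% of all probes lower. They were alpha end C, the gamma polypeptide probe, V14-3 and V1-85, and 19 of 23 had an unadjusted p under 0.05. Alpha end C, the gamma polypeptide probe and V1-85 had passed the filter through a WT CaCl2 group alone. Without a filter, 4 of the 43 probes passed, against 0.0234% of all probes lower. For mu the difference in response was -0.52 (limma, adjusted p = 0.858). The count was 0 under a random slide block or a fit of the compared groups alone, and it ranged from 0 to 15 when single arrays were left out. It was also 0 with a filter of 15 measured arrays, under which V14-3 alone of the 4 was still tested. It was 15 without WT sham day 42 replicate 2 and 7 without WT CaCl2 day 42 replicate 1. It was 2 without WT sham day 42 replicate 1, 1 without WT sham day 42 replicate 3, and 0 without WT CaCl2 day 42 replicate 3, uMT sham day 42 replicate 2 or 3, or uMT CaCl2 day 42 replicate 3. The change from day 7 to day 42 after CaCl2, in which a difference between slides cancels, differed between genotypes for 0 of the 23 tested probes and for 0 of all 33228 by limma, while 18 of the 23 had an unadjusted p under 0.05.

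Other genes of the antibody pathway moved in part with the heavy chain probes in WT at day 42. Of 13 genes of antibody secretion, 3 rose and 0 fell, against 5.79% of all tested probes higher. The same share stands beside each WT count below. Jchain, which joins IgA and IgM into polymers, rose by 9.19 ± 1.01 (limma, adjusted p = 1.42e-05). Pou2af1, a B lineage transcription coactivator, rose by 3.04 and Derl3, of endoplasmic reticulum quality control, by 2.08. Jchain was the only gene of these lists whose response differed between genotypes (-9.12 ± 1.43, limma adjusted p = 0.0102), and it was measured on 10 of the 15 WT arrays and 0 of the 15 uMT arrays. Of 7 tested partners of the heavy chain in the B cell receptor, Cd79b (2.64) and the adaptor Blnk (2.70) rose, but Blnk rose in uMT as well (2.41, limma adjusted p = 0.00902). Of 8 tested genes of class switching and 5 of rearrangement, 0 passed in WT at day 42. Beside a share of 5.79%, a count of 0 in lists this short shows nothing particular to them. Of 11 tested receptors for heavy chain classes, 5 rose in WT and 4 in uMT, against 5.79% and 4.04% of all tested probes. Fcgr2b, the inhibitory IgG receptor, rose by 3.07 and 2.92, and Fcgr4 by 2.45 and 2.11. Fcmr, the IgM receptor, rose by 2.38 in WT and differed by 0.10 in uMT. It was measured on 0 of the 15 uMT arrays, so its uMT difference is between signals at background. Jchain, Pou2af1 and Fcmr passed the filter through a WT CaCl2 group alone, so their rise there is partly built into the filter. Of 3 tested cytokines of class switching, Tnfsf13b, a B cell survival factor, rose by 2.64 in WT and 2.04 in uMT.

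Markers of other cells moved with the same comparison, and their part in the heavy chain signal was not tested. The counts of markers that rose stand beside 5.79% of all tested probes higher in WT at day 42. The summed linear level of 7 B cell markers ran from 3.2 to 6.33 on WT CaCl2 day 42 arrays, 1.12 to 2.90 in WT sham and 1.02 to 1.23 in uMT CaCl2 day 42, and 1 of 6 tested rose in WT. The B cell marker Ms4a1 was not the riser (difference of 0.95, limma adjusted p = 0.475). The 7 plasma cell markers summed to 67.9 to 174 against 10.6 to 75.3 in WT sham, and 2 of 7 rose. Their sum was 37.5 to 43.4 in uMT CaCl2 day 42, 50.3 to 57.1 in uMT pre and 40.3 to 45.9 in WT pre. Xbp1 and Sdc1 of this list were measured on all 15 uMT arrays, so the sum does not read plasma cells alone. Of 4 tested lymph node stroma markers, 2 rose in WT (Ccl19 by 1.85 and Glycam1 by at least 1.88-fold). Glycam1 had passed the filter through a WT CaCl2 group alone. The sum of the 4 was 20.9 to 25.6 in WT CaCl2 day 42, 3.57 to 11.6 in WT sham and 16.8 to 20.7 in uMT CaCl2 day 42. Of 4 macrophage markers 4 rose, of 5 tested T cell markers 3 rose, and of 6 smooth muscle markers 5 fell in WT. Without a filter, 1.71% of all probes were lower in WT at day 42.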

How the data were processed

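Aortic RNA from 30 samples was hybridised with 1 colour (Cy3) to Agilent mouse arrays. The authors deposited scanner output with linear intensity per spot, background-subtracted by Agilent Feature Extraction 10.7.1.1 per the file headers (9.5.1.1 per the submitters' processing notes). RNA purification is described differently in the design text and in the labels, so the kit is not given here. The authors also deposited a linear intensity table of the same arrays, used as an alternative. Unflagged spots of a probe were averaged, log2 was taken, and each array's 75th percentile was subtracted. A probe was tested if well above background on all 3 arrays of at least 1 group. Group means of all 30 arrays were fitted with limma 3.58.1 in R 4.3.3 (20 residual degrees of freedom), with Benjamini-Hochberg adjustment over all 33228 probes and a threshold of 0.05. On simulated arrays with independent normal noise, the fitted changes followed those put in. The simulation held no slide effect, dim array or background limit, so it checks the fit alone. Probes described singly were the constant region probes, those measured on all 15 uMT arrays, and the 4 variable probes with the largest and 2 with the smallest change in WT at day 42, with classes taken from the descriptions. Exceptions are named where they occur. The members and the gene lists were chosen with earlier results of these data known. Positions are those of the array annotation, in mm9. Same-numbered replicates did not deviate together (every pair of a comparison over a correlation of 0.1 in none), so the numbers pair no samples.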

Additional observations from a re-analysis of the deposited data

Results flagged for a closer look

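A test of the difference between the genotypes in their CaCl2 response at day 42 passed for 4 heavy chain probes. None of these calls was kept under a random slide block or a fit of the compared groups alone, where the count was 0. With a filter of 15 measured arrays the count was also 0. That filter left alpha end C, the gamma polypeptide probe and V1-85 untested, so for them it decides nothing. Alpha end C responded by 7.69 in WT and 0.10 in uMT, a difference of -7.59 ± 1.24 (log2, standard error; limma, adjusted p = 0.0154). The gamma polypeptide probe responded by 5.91 in WT and 0.36 in uMT, a difference of -5.55 ± 0.963 (limma, adjusted p = 0.0214). V14-3 responded by 4.02 in WT and -0.04 in uMT, a difference of -4.07 ± 0.720 (limma, adjusted p = 0.0242). V1-85 responded by 5.26 in WT and -0.36 in uMT, a difference of -5.61 ± 1.01 (limma, adjusted p = 0.0264). Except V14-3, these probes were measured on 0 of the 15 uMT arrays, so that their uMT responses are differences between signals at background.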

How the results depend on the processing

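Counts are of the 23 tested heavy chain probes that passed, with the count reported first. In WT at day 7, 2 became 1 without a filter, 0 with a filter asking for 15 measured arrays, 0 with slide as a random or fixed block, 9 when the random block was fitted after dropping the WT sham day 42 replicate 2 array, 13 with array weights, 8 without the dim arrays, 9 with the compared groups fitted alone and 0 to 8 when 1 array was left out. In WT at day 42, 20 became 4 with the stricter filter, 0 with the compared groups alone and 16 to 21 when 1 array was left out. In uMT, the 0 at day 7 stayed 0 without any single array, while the 0 at day 42 became 2 with the random block after dropping that array, 1 with array weights and 0 to 1 when 1 array was left out (1 without uMT sham day 42 replicate 1). The genotype difference in response went from 4 to 11 (normexp and quantile), 14 (quantile), 14 (the authors' table), 0 (stricter filter), 0 (slide as a random block), 16 (the same without that array), 16 (array weights), 0 (compared groups alone) and 0 to 15 (1 array left out). The average genotype difference went from 9 to 14 (quantile), 14 (the authors' table), 2 (stricter filter), 0 (slide as a random block), 15 (the same without that array), 14 (array weights) and 6 to 13 (1 array left out). Between genotypes after CaCl2 at day 42, 18 became 3 with the stricter filter, 0 under the random slide block, 9 with the compared groups alone and 12 to 21 when 1 array was left out. From day 7 to day 42 in WT, 17 became 3 with the stricter filter, 4 with the compared groups alone and 8 to 18 when 1 array was left out. Array weights gave 8 for the genotypes before operation and 4 for the uMT time course, both 0 as reported. The genotype difference in time course, 0 as reported, became 7 (normexp and quantile), 6 (quantile), 6 (the authors' table), 1 (slide as a random block), 13 (array weights), 2 (dim arrays left out) and 0 to 1 (1 array left out; 1 without WT sham day 42 replicate 2 or uMT CaCl2 day 7 replicate 1). The cause of these shifts was not tested, apart from the smaller number of probes under the stricter filter and of arrays in the fits of compared groups alone.

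The median change of constant minus variable probes, by description, was 0.39. It became 2.57 without a filter, -1.98 for mu alone, 2.52 by position and 6.39 for the alpha end by position, the last pair chosen after seeing the data, and -0.33 to 1.40 when 1 array was left out. The 4 probes measured on at least 8 of 15 uMT arrays became 15 and 17 with the other limits, and stayed at 4 without any single array. Some small differences changed sign. IgG2a downstream at day 7 in WT was -0.84 and -1.27 with slide as a random and a fixed block, and -0.0200 to 0.89 when 1 array was left out. IgG2a upstream was -0.70 to 0.20 in the same way. Gamma 1 upstream was 0.15 and 0.33 with the slide blocks, 0.094 with array weights, 0.0079 with the percentile over probes measured on all arrays, and -0.22 to 0.17 when 1 array was left out. Mu was 0.14 and 0.26 with the slide blocks and -0.34 to 0.0078 when 1 array was left out. At day 42 in WT, V10-3 was -0.0548 with normexp and quantile, -0.0449 with quantile and -0.0457 with the authors' table, and -0.50 to 0.92 when 1 array was left out. V1-63 was 0.075, 0.069 and 0.074 in that order, 0.11 with array weights, and -0.65 to 0.41 when 1 array was left out.

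With the replicate number as a block, the count in WT at day 7 was 3, and the other counts stayed within 1.5 times those reported. The numbers do not pair the samples, as the correlations of same-numbered deviations ranged on both sides of 0. Arrays of one slide correlated at 0.75 within probes, and at -0.0658 without the WT sham day 42 replicate 2 array, whose weight was 0.0220 against a median of 1.42. The weights stopped before converging. A fixed slide block could not be fitted for the comparisons of CaCl2 and sham in uMT, of uMT and WT after CaCl2 at day 42, of the genotype difference in response and of the average. Quantile scaling and the authors' table moved the median of all probes by -0.13 and -0.14 for the genotype difference in response. Levels near background have no firm order, which limits the probes not measured in sham or uMT arrays.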
